A study of Mus musculus with 24 samples.

Results

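Complex I (NADH dehydrogenase) is the entry point of the mitochondrial respiratory chain: its peripheral arm takes electrons from NADH and passes them along iron-sulfur clusters to quinone, and its membrane arm pumps protons. Core subunits carry out the chemistry, accessory subunits surround and stabilise them, and assembly factors build the complex but are not part of the finished enzyme. The heart draws most of its ATP from this chain. The complex I genes described here are the array probes whose gene symbol begins with Nduf and that were detected, with a detection p below 0.05, on at least 3 of the 12 arrays in each of 2 mouse strains. This rule took 61 probes of 42 genes, of 68 Nduf probes of 44 genes on an array of 45281 probes.

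By role, the 61 probes measured 5 core subunits (Ndufv1, Ndufv2, Ndufs3, Ndufs7 and Ndufs8, 1 probe each), 9 accessory subunits of the peripheral arm with 16 probes, 18 of the membrane arm with 25 probes, the acyl carrier Ndufab1 with 4 probes and 7 assembly factors with 9 probes. Of the remaining probes, 1 belonged to Ndufa4, now counted as a subunit of complex IV, and 1 to the pseudogene Ndufs5-ps. The 7 Nduf probes outside the rule included the only probes of the core subunit Ndufs1 and of the assembly factor Ndufaf6, which were detected on 0 arrays. The other 5 were further probes of Ndufaf7, Ndufaf8, Ndufb2 and Ndufb11, whose closest case was an Ndufb11 probe detected on 5 Balb/C arrays but on 1 C57Bl/6J array. Of the 61 probes, 58 were detected on all 12 arrays of each strain.

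The samples were left ventricles of male mice, 24 arrays in 8 groups of 3. The Balb/C groups were TK AngII, TK sham, WT AngII and WT sham, and the C57Bl/6J groups were KO AngII, KO sham, WT AngII and WT sham, where TK and KO mice are labelled as deficient in Bmx, a non-receptor tyrosine kinase, and WT mice are wild type. AngII mice received angiotensin II, a peptide hormone that raises blood pressure and enlarges the heart, for 2 weeks, and sham mice received saline. The sources used here do not give what TK and KO stand for, the animals' ages, or whether the 3 arrays of a group came from 3 animals. The p-values thus rest on the spread between arrays, which may be technical.

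Median raw array signals ran from 95.3 to 110.2 in Balb/C with 17222 to 18592 detected probes, and from 124.2 to 139.8 in C57Bl/6J with 17934 to 19262 detected probes. Of 4 Bmx probes, ILMN_2857993 was detected on all 3 arrays of every group, deficient and wild type alike, and the other 3 were at background on nearly all arrays, so the arrays do not check the genotype. Cardiomyocyte markers such as Myh6, Actc1 and Tnni3 were detected in both strains, and no adipocyte marker (Adipoq, Plin1, Cidec, Ucp1) was. Values below are background-corrected, quantile-normalized log2 signals, with each strain normalized by itself. A difference of 1 on this scale is 2-fold, ± is the standard error of a fitted difference, and a probe was called when its limma p, adjusted by Benjamini and Hochberg over all kept probes of the strain, was below 0.05.

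Averaged over the 61 probes, complex I signal was even across the C57Bl/6J arrays and uneven across the Balb/C arrays. The 3 TK AngII arrays averaged 10.71, 10.73 and 10.66, and the TK sham arrays 10.64, 10.44 and 10.12. The WT AngII arrays averaged 10.59, 10.07 and 10.19, and the WT sham arrays 10.23, 10.15 and 10.46. By this mean the lowest TK AngII array lay 0.02 above the highest other Balb/C array, TK sham replicate 1. By the median of the 61 probes the order differed: TK sham replicate 1 was at 11.94, above the TK AngII arrays at 11.76, 11.66 and 11.54. The means of the other 3 groups overlapped, with WT AngII replicate 1 standing well above its 2 partners and TK sham replicate 3 well below its own. In C57Bl/6J all 12 averages lay between 11.55 and 11.71. In whole tissue, fewer cardiomyocytes and less RNA per cardiomyocyte cannot be told apart.

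**Figure D1:**
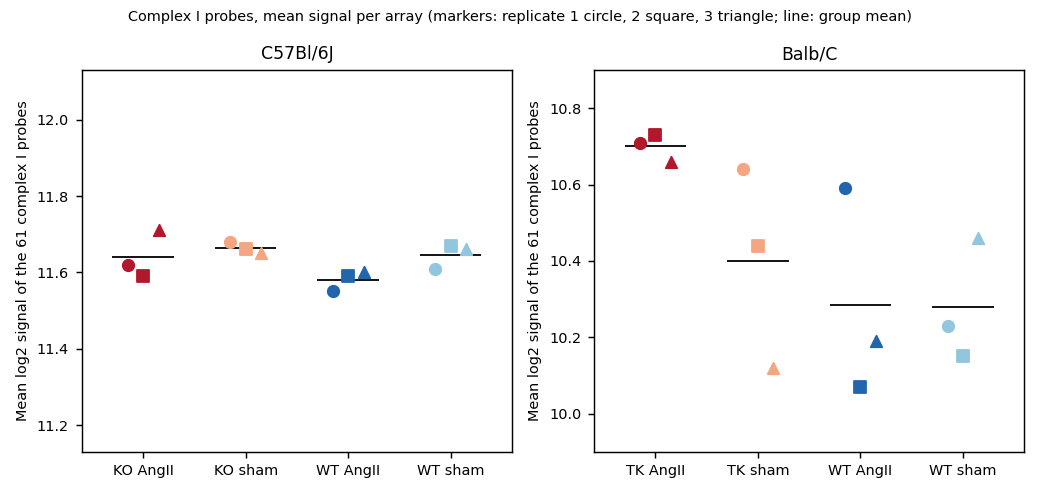
Mean normalized log2 signal of the 61 complex I probes on each array, by group, with C57Bl/6J on the left and Balb/C on the right. Points are arrays and lines are means of 3 arrays. The TK AngII arrays sit between 10.66 and 10.73, with TK sham replicate 1 next to them at 10.64, and the C57Bl/6J arrays lie between 11.55 and 11.71. The strains were normalized separately, so levels are not compared across panels.

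The first question was whether complex I transcripts changed with 2 weeks of AngII in wild-type Balb/C ventricles. They did not move as a block: 9 of 61 probes rose and 7 fell, while 34.3% of all 19783 kept probes were called, 16.6% higher and 17.8% lower. The probes that rose by most belonged to membrane-arm accessory subunits (Ndufb9, Ndufb5, Ndufb10, Ndufb2), to Ndufs4 and Ndufa5 of the peripheral arm and to the assembly factors Ndufaf5 and Ndufaf2. The probes that fell belonged to Ndufa3, Ndufv3, Ndufaf7, Ndufa9 and Ndufs6. None of the 5 core subunits was called. The median difference over the 61 probes was -0.15, against -0.06 over all probes, and leaving out 1 array at a time it ran between -0.27 (without WT AngII replicate 1) and -0.01 (without WT AngII replicate 2).

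In TK mice 12 of 61 probes rose with AngII and 1 fell, where 13.4% of all probes were called, 7.82% higher and 5.58% lower. The median difference was 0.10, against -0.05 over all probes, and leaving out 1 array at a time it ran between 0.24 (without TK sham replicate 1) and -0.02 (without TK sham replicate 3). Of the 16 probes called in wild type and the 13 called in TK mice, 10 were shared, which is 62.5% and 76.9% of the lists. These comparisons have no arrays in common, but they share the normalization and a fit with a common spread per probe. The overlap of the lists over all probes was not counted, so 10 has no yardstick. With both genotypes averaged, 13 probes rose and 6 fell, where 39.5% of all probes were called, 17.9% higher and 21.6% lower. Without TK sham replicate 3, the array with the lowest complex I average of its group, the number called in TK mice was 9.

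The core subunits hold the flavin (Ndufv1) and the iron-sulfur clusters (Ndufv2, Ndufs7, Ndufs8), and Ndufs3 lies beside the quinone end. Ndufv1 measured 14.28, 14.38 and 14.10 in TK AngII and 14.19, 14.29 and 14.25 in TK sham ventricles. In wild type it measured 14.41, 14.09 and 13.90 under AngII and 14.26, 14.29 and 14.14 in sham. Both pairs of groups overlapped, and the AngII differences were 0.01 ± 0.15 and -0.10 ± 0.15. Ndufv2 measured 13.34, 13.34 and 13.39 in TK AngII and 13.47, 13.56 and 13.19 in TK sham, and 13.18, 12.86 and 13 in WT AngII and 13.27, 13.14 and 13.28 in WT sham. Its wild-type arrays lay slightly lower under AngII (-0.22 ± 0.14, adjusted p = 0.251), with overlapping ranges.

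Ndufs3 measured 12.50, 12.54 and 12.47 in TK AngII and 12.48, 12.45 and 12.16 in TK sham, and 12.22, 11.59 and 12.13 in WT AngII and 11.55, 12.28 and 12.20 in WT sham. Ndufs7 measured 13.28, 13.31 and 13.16 in TK AngII and 13.43, 13.31 and 12.93 in TK sham, and 13.25, 12.91 and 13.05 in WT AngII and 13.38, 13.05 and 13.19 in WT sham. Neither gene separated AngII from sham arrays in either genotype. Ndufs8 was the core subunit with the most negative wild-type difference, at -0.42 ± 0.17, adjusted p = 0.0696: it measured 12.07, 11.39 and 11.72 in WT AngII and 12.02, 12.12 and 12.30 in WT sham. In TK mice it measured 12.43, 12.32 and 12.31 under AngII and 12.49, 12.40 and 12 in sham, and these groups overlapped (0.06 ± 0.17).

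In the peripheral arm, 3 of 16 accessory probes rose and 4 fell in wild-type Balb/C, and 4 rose and 0 fell in TK mice. By comparison, 16.6% of all kept Balb/C probes rose and 17.8% fell in wild type, and 7.82% rose and 5.58% fell in TK mice. Ndufs4, a small subunit of the NADH-binding end that is mutated in human Leigh syndrome, gave the largest rise in this arm, on its dimmest probe ILMN_2663694. That probe measured 9.27, 9.51 and 9.36 in TK AngII and 8.12, 8.15 and 7.40 in TK sham (1.49 ± 0.25, adjusted p = 0.000824). It measured 9.59, 8.46 and 8.58 in WT AngII and 7.55, 7.50 and 7.93 in WT sham (1.22 ± 0.25, adjusted p = 0.00135). In both genotypes every AngII array lay above every sham array, and WT AngII replicate 1 was higher than its partners. Over all kept Balb/C probes, AngII and sham groups did not overlap, in either direction, on 33.8% in TK mice and 44.3% in wild type.

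The Ndufs4 probe ILMN_2900025 also rose in both genotypes (0.81 ± 0.25 in TK and 0.78 ± 0.25 in wild type). Its TK call was lost under 6 of 10 alternative settings and in 5 of 6 runs that left out 1 array. The wild-type call was lost under 1 of 10 and in 4 of 6. Another Ndufs4 probe, ILMN_2640944, rose in TK mice (0.92 ± 0.24, adjusted p = 0.0164) and measured 0.59 ± 0.24, adjusted p = 0.0635 in wild type. The brightest, ILMN_1234521, did not follow them. It measured 12.06, 11.92 and 11.72 in TK AngII and 12.31, 12.04 and 11.63 in TK sham, and 11.55, 10.66 and 11.28 in WT AngII and 10.83, 11.43 and 11.76 in WT sham, with overlapping ranges in both genotypes and a difference of -0.14 ± 0.17, adjusted p = 0.565 with genotypes averaged. Whether a rise of Ndufs4 was called therefore depended on the probe.

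**Figure D2:**
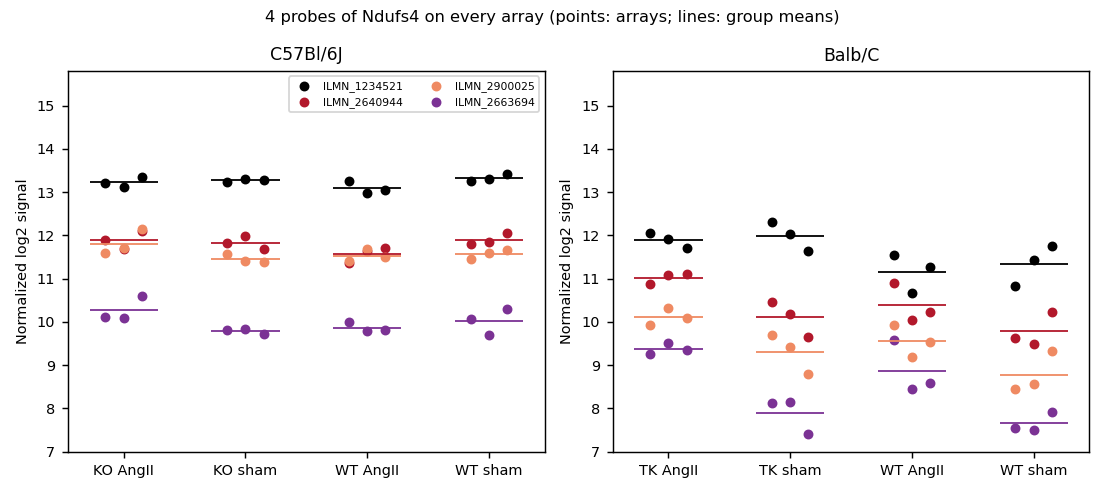
Normalized log2 signal of the 4 Ndufs4 probes on every array, by group, for C57Bl/6J (left) and Balb/C (right). Points are arrays and lines are group means of 3 arrays. In Balb/C the 3 dimmer probes are higher in AngII than in sham groups, by 0.76 to 1.36 with genotypes averaged, and the brightest probe, in black, is not (-0.14).

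Ndufa5, another peripheral accessory subunit, was divided in the same way. Its dim probe ILMN_2691460 rose by 1.30 ± 0.27 in TK mice and by 1.04 ± 0.27 in wild type (adjusted p = 0.00386 and 0.00647), and its bright probe ILMN_1216007 measured 0.03 ± 0.20 and -0.32 ± 0.20 without being called. Of the peripheral probes that fell in wild type, Ndufv3 had 2. ILMN_2668977 measured 12.88, 12.44 and 12.54 in WT AngII and 13.46, 13.07 and 13.26 in WT sham (-0.64 ± 0.15, adjusted p = 0.00313), with no overlap, and ILMN_3008277 fell by 0.52 (SE 0.19). Ndufa9, which sits where the arms join, fell in wild type (-0.51 ± 0.14, adjusted p = 0.0104), and the zinc-binding Ndufs6 fell on 1 of its 2 probes (-0.49 ± 0.16, adjusted p = 0.0285). In TK mice these 4 probes were not called, with differences of -0.16 ± 0.15, -0.13 ± 0.19, -0.34 ± 0.14 and -0.02 ± 0.16.

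In the membrane arm, 4 of 25 probes rose and 2 fell in wild type, and 5 rose and 0 fell in TK mice. The shares of all kept probes were 16.6% rising and 17.8% falling in wild type, and 7.82% and 5.58% in TK mice. The largest rise of all 61 probes was that of Ndufb9, an accessory subunit of the outer membrane arm. Ndufb9 measured 9.62, 9.68 and 9.54 in TK AngII and 8.11, 7.70 and 6.90 in TK sham (2.04 ± 0.30, adjusted p = 0.000254). It measured 9.38, 8.37 and 8.49 in WT AngII and 7.04, 7.16 and 8.01 in WT sham (1.35 ± 0.30, adjusted p = 0.00231). AngII and sham arrays did not overlap in either genotype, although the sham arrays themselves were widely spread.

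Ndufb5, of the same outer part, measured 10.19, 10.14 and 10.04 in TK AngII and 9.16, 8.93 and 8.23 in TK sham (1.35 ± 0.23, adjusted p = 0.00103). In wild type it measured 10.09, 9.24 and 9.34 under AngII and 8.72, 8.32 and 8.80 in sham (0.94 ± 0.23, adjusted p = 0.00499). No AngII array overlapped a sham array of its genotype. The dimmer Balb/C probe of Ndufb10, ILMN_2691261, measured 7.45, 7.18 and 7.41 in TK AngII and 6.42, 6.15 and 5.59 in TK sham (1.29 ± 0.24, adjusted p = 0.00154). It measured 7.33, 6.81 and 6.40 in WT AngII and 6.25, 5.60 and 6.10 in WT sham (0.86 ± 0.24, adjusted p = 0.00928). The groups were again apart, and both Ndufb10 probes rose in TK mice, where ILMN_2900216 gave 0.92 ± 0.22, adjusted p = 0.0109. Ndufb2 rose in both genotypes, by 1.43 ± 0.26 in TK and 0.83 ± 0.26 in wild type.

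The 2 membrane-arm probes that fell in wild type were both of Ndufa3, a small subunit near the join of the arms. ILMN_2772241 measured 11.52, 11.27 and 11.24 in WT AngII and 12.46, 12.09 and 12.43 in WT sham (-0.98 ± 0.16, adjusted p = 0.000202), and ILMN_2792560 gave -0.81 ± 0.18, adjusted p = 0.00244. Every WT AngII array lay below every WT sham array on both probes. In TK mice the same probes measured -0.34 ± 0.16 and -0.31 ± 0.18, not called. Ndufb8 was called lower on 1 of 2 probes with genotypes averaged (-0.31 ± 0.12, adjusted p = 0.0406, ILMN_2501071). This call was lost under 5 of 9 alternative settings and in 8 of 12 runs that left out 1 array. The brighter Ndufb8 probe, ILMN_2621966, gave -0.04.

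Among the assembly factors, whose tasks are known from human cells, 2 of 9 probes rose and 1 fell in wild type, and 3 rose and 1 fell in TK mice. The shares of all kept probes were again 16.6% rising and 17.8% falling in wild type, and 7.82% and 5.58% in TK mice. Ndufaf5 modifies the core subunit Ndufs7. Its probe ILMN_1216813 measured 5.82, 5.74 and 6.21 in TK AngII and 5.02, 4.53 and 4.53 in TK sham (1.23 ± 0.19, adjusted p = 0.000412), and 6.05, 5.58 and 5.47 in WT AngII and 4.37, 4.44 and 4.78 in WT sham. It was detected on all 3 WT AngII arrays and on 0 of 3 WT sham arrays, so the wild-type rise is at least 1.85-fold (fitted difference 1.17, adjusted p = 0.000192). On TK sham arrays it was detected on 1 of 3, so the fitted TK difference depends on the background there. The brighter Ndufaf5 probe, ILMN_2747677, measured -0.20 ± 0.18 in TK and -0.10 ± 0.18 in wild type, not called.

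Ndufaf2, a relative of the subunit Ndufa12 that holds its place during assembly, measured 7.91, 8.07 and 8.19 in TK AngII and 7.16, 6.88 and 6.53 in TK sham (1.20 ± 0.19, adjusted p = 0.00041). It measured 8, 7.39 and 7.45 in WT AngII and 6.67, 7.02 and 6.86 in WT sham (0.77 ± 0.19, adjusted p = 0.00428). It rose without overlap in both genotypes and has 1 probe. Ndufaf3, which acts early in building the quinone module, rose in TK mice (0.79 ± 0.18, adjusted p = 0.00864) and measured 0.43 ± 0.18, adjusted p = 0.0777 in wild type. Ndufaf7, a mitochondrial methyltransferase, fell in both, by 0.55 in TK (SE 0.17, adjusted p = 0.0369) and by 0.62 in wild type (SE 0.17, adjusted p = 0.00838). Its TK call was lost under 4 of 11 alternative settings and in 5 of 6 runs that left out 1 array. The wild-type call was lost under 1 of 11 and in 0 of 6. The acyl carrier Ndufab1, which also serves mitochondrial fatty acid synthesis, was called higher with genotypes averaged on 1 of 4 probes (0.33 ± 0.11, adjusted p = 0.0246, ILMN_2732281), a dim probe detected on 4 of 6 AngII arrays and 0 of 6 sham arrays. Ndufa4 and Ndufs5-ps were called in no comparison.

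**Figure D3:**
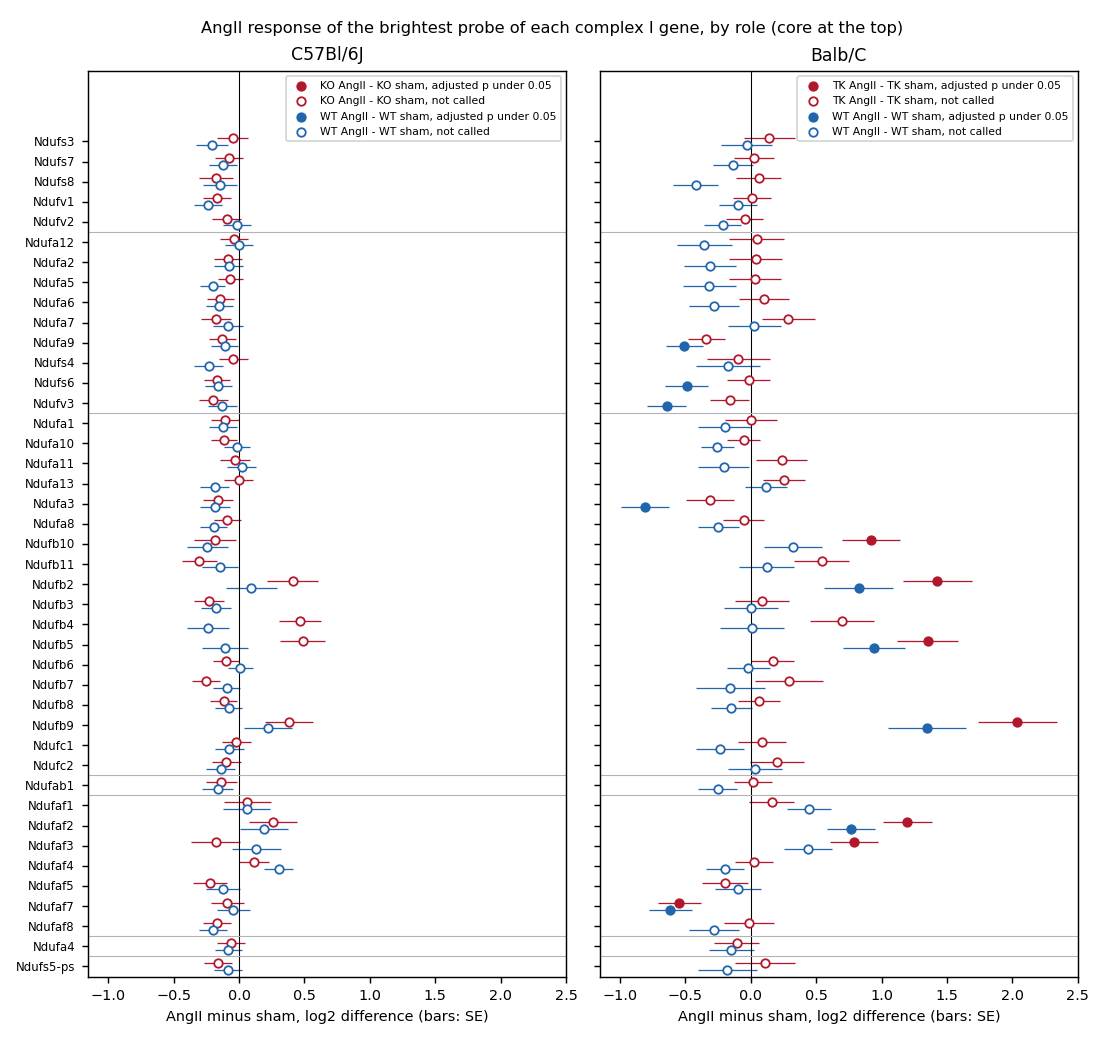
AngII minus sham log2 difference with its standard error for the brightest probe of each of the 42 genes, ordered by role from the core subunits down, in C57Bl/6J (left) and Balb/C (right). Red is the Bmx-deficient genotype and blue the wild type, and filled points are called. In Balb/C the called points above 0 are Ndufb9, Ndufb5, Ndufb2, Ndufb10, Ndufaf2 and Ndufaf3, and 0 of the 42 genes is called in C57Bl/6J.

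The scaling of the arrays moved the calls of all probes, complex I probes among them. Giving all Balb/C arrays the same median, without equalising their quantiles, moved the median of all probes in wild-type AngII against sham to 0.28, against -0.06. On that scale 14 complex I probes were called higher and 0 lower in wild type, where the quantile scale gave 9 and 7, and their median was 0.33, against -0.15. Over all 19783 kept probes that scale called 6330 higher and 494 lower, and the quantile scale 3279 and 3512. The 7 falling probes kept a negative sign but were no longer called: Ndufa3 measured -0.48 (adjusted p = 0.0822) and -0.33, and Ndufa9 measured -0.004 (adjusted p = 0.991). All 9 rising probes were called on both scales. In TK mice the split was 10 higher and 0 lower with common medians and 12 and 1 with quantiles, and with genotypes averaged it was 19 and 0, against 13 and 6. Over all kept probes the split with common medians was 1091 higher and 281 lower in TK mice, and 5045 and 993 with genotypes averaged.

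The probes that rose were dimmer than the other complex I probes. With genotypes averaged, the 13 complex I probes called higher in Balb/C had a median normalized signal of 7.80, with a range of 4.61 to 10.85. The 6 called lower had a median of 11.94 and the 42 not called 12.04. Among all kept probes, those called higher had a median signal of 6.67, those called lower 7.09 and those not called 5.87. The part of probe brightness in these calls was not tested.

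Probes of a single gene offered a comparison within the same arrays. For each gene with several kept probes, the AngII response of the brightest probe was set against that of each other probe, a measure added after the values were seen. In Balb/C the responses differed in 11 of 19 complex I pairs, at adjusted p below 0.05, and in all 11 the other probe had the higher response. Over all such pairs on the array 32.6% differed, and in 1134 of those 1952 pairs the other probe was higher. Several of the 11 complex I pairs were of Ndufs4 and shared its brightest probe, so the 11 are not separate observations. The gap, brightest minus other, was -1.49 ± 0.15 at Ndufs4 (ILMN_2663694) and -1.31 ± 0.12 at Ndufa5. At Ndufaf5 it was fitted as -1.35 ± 0.16, but the dimmer probe was detected on 1 of 6 Balb/C sham arrays, so this value depends on the background there. Smaller gaps appeared at Ndufv3, Ndufb10, Ndufab1, Ndufaf4, Ndufs6 and Ndufc1, from -0.61 to -0.28. The dimmer Ndufab1 probe was detected on 0 of 3 sham arrays in each Balb/C genotype, so its gap also depends on the background. In C57Bl/6J 1 of 19 pairs differed, that of Ndufa5 (-0.45 ± 0.10, adjusted p = 0.0256), where 5.22% of all pairs did. Which transcripts each probe matches was not examined, because probe sequences were not used here.

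**Figure D4:**
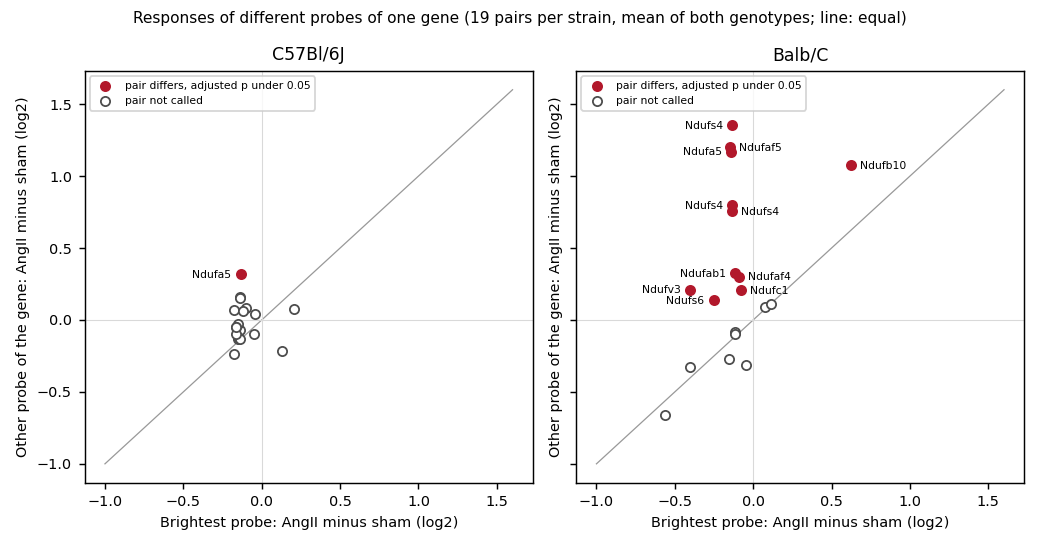
AngII minus sham log2 difference, genotypes averaged, of the brightest probe of a gene (horizontal axis) and of another probe of the same gene (vertical axis), 19 complex I pairs per strain. The line marks equal responses and red points are pairs whose responses differ at adjusted p below 0.05. In Balb/C all 11 red points lie above the line, and in C57Bl/6J the 1 red point is Ndufa5.

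In C57Bl/6J complex I transcripts differed little between AngII and sham ventricles. In wild type 0 of 61 probes were called, where 6.41% of all probes were. In KO mice 1 probe rose and 0 fell, where 3.39% of all probes were called and 2.02% were called higher. With genotypes averaged 1 rose and 0 fell, where 15.3% of all probes were called and 7.9% were called higher. Most differences lay slightly below 0. In wild type 15 of 61 probes lay above 0, against 48.5% of all probes, and with genotypes averaged 16 of 61 did, against 48.1%. The median difference was -0.09 in wild type and -0.10 with genotypes averaged, against -0.01 over all probes in each. On the deposited series values, and with no background correction, 2 probes were called higher and 7 lower with genotypes averaged. Of all 20319 kept probes, 1862 were then called higher and 1926 lower on the deposited values, and 1863 and 1915 without background correction.

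The probe that rose in C57Bl/6J was again the dim Ndufa5 probe, ILMN_2691460. It measured 8.97, 8.67 and 9.26 in KO AngII and 8.37, 8.39 and 8.43 in KO sham (0.57 ± 0.14, adjusted p = 0.0461). It measured 8.41, 8.56 and 8.46 in WT AngII and 8.38, 8.31 and 8.54 in WT sham (0.07 ± 0.14, adjusted p = 0.821). The KO groups did not overlap and the wild-type groups did. Under the alternatives tried its adjusted p in KO mice ran from 0.0145 to 0.15, and it lost the call in 5 of 6 runs that left out 1 array.

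Of the further genes, the smallest p was that of Ndufa3 on ILMN_2772241, the probe that fell in wild-type Balb/C, although it was not called here. It measured 13.56, 13.38 and 13.38 in KO AngII and 13.68, 13.63 and 13.83 in KO sham, and 13.62, 13.49 and 13.34 in WT AngII and 13.61, 13.74 and 13.70 in WT sham (-0.24 ± 0.08, adjusted p = 0.0686 with genotypes averaged). The AngII arrays lay below the sham arrays in KO mice, and overlapped them in wild type. Ndufaf4, the partner of Ndufaf3, measured 12.11, 12.08 and 11.89 in KO AngII and 11.95, 12.01 and 11.79 in KO sham, and 12.07, 12.08 and 12.10 in WT AngII and 11.70, 11.75 and 11.90 in WT sham (0.21 ± 0.08, adjusted p = 0.0904). Ndufb3 measured 12.39, 12.42 and 12.42 in KO AngII and 12.70, 12.44 and 12.77 in KO sham, and 12.49, 12.53 and 12.44 in WT AngII and 12.65, 12.81 and 12.54 in WT sham (-0.20 ± 0.08, adjusted p = 0.116). Neither was called. The Ndufb3 groups were apart in both genotypes. Over all kept C57Bl/6J probes, AngII and sham groups were apart, in either direction, on 25.7% in KO mice and 27.4% in wild type.

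Ndufaf8, which holds Ndufaf5 stable, measured 10.10, 9.94 and 9.84 in KO AngII and 10.04, 10.11 and 10.23 in KO sham, and 9.89, 9.92 and 9.93 in WT AngII and 10.17, 10.11 and 10.04 in WT sham (-0.18 ± 0.08, adjusted p = 0.123). Ndufb7 measured 10.92, 10.89 and 10.90 in KO AngII and 11.02, 11.19 and 11.26 in KO sham, and 11.06, 10.97 and 10.94 in WT AngII and 11.04, 11.16 and 11.06 in WT sham (-0.17 ± 0.07, adjusted p = 0.133). Neither difference was called, and the KO groups were apart for Ndufb7 and overlapped for Ndufaf8.

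The 5 core subunits all lay below sham in both C57Bl/6J genotypes without reaching the threshold. Ndufv1 came closest, with 14.07, 14.16 and 14.06 in KO AngII and 14.21, 14.24 and 14.33 in KO sham, and 13.89, 14.13 and 14.07 in WT AngII and 14.25, 14.32 and 14.23 in WT sham (-0.20 ± 0.07, adjusted p = 0.0817). Its AngII arrays lay below its sham arrays in both genotypes. Ndufv2 measured 13.91, 14.04 and 14.11 in KO AngII and 14.23, 14.16 and 13.96 in KO sham, and 13.99, 14.02 and 14.09 in WT AngII and 14.09, 14.04 and 14.01 in WT sham. Ndufs3 measured 12.94, 13.19 and 13.12 in KO AngII and 13.11, 13.24 and 13.05 in KO sham, and 13.05, 12.95 and 12.99 in WT AngII and 13.29, 13.31 and 13.01 in WT sham. Both overlapped between treatments in each genotype. Ndufs7 measured 14.01, 13.96 and 13.98 in KO AngII and 13.98, 14.07 and 14.13 in KO sham, and 13.87, 13.84 and 14.10 in WT AngII and 13.99, 14.09 and 14.09 in WT sham. Ndufs8 measured 13.05, 13.11 and 13.14 in KO AngII and 13.30, 13.23 and 13.31 in KO sham, and 13.15, 12.82 and 13.06 in WT AngII and 13, 13.40 and 13.05 in WT sham. For Ndufs8 the KO groups were apart and the wild-type groups overlapped, and the differences with genotypes averaged were -0.16 ± 0.09 for Ndufs8 and -0.10 ± 0.08 for Ndufs7.

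The study's second question was whether Bmx deficiency altered the AngII response. Under AngII, TK ventricles of Balb/C held more complex I signal than wild-type ventricles on every one of the 61 probes, where 51.9% of all probes were higher. The median difference was 0.36, against 0.01 over all probes. Of the 61 probes, 6 of 5 genes were called higher and 0 lower, where 8.33% of all probes were called and 3.38% were called higher. The genes were Ndufa8, Ndufb11 and Ndufb6 of the membrane arm, Ndufa6 of the peripheral arm and the core subunit Ndufs8. On 26 of 61 probes the 3 TK AngII arrays did not overlap the 3 WT AngII arrays, where this held for 26.4% of all probes. These probes are measured on the same 6 arrays, so the common direction is not 61 separate observations.

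Ndufa8, a subunit of the membrane arm with disulfide bonds, was called on both of its probes. ILMN_2682019 measured 12.16, 12.02 and 11.81 in TK AngII and 11.35, 10.66 and 11.39 in WT AngII (0.87 ± 0.20, adjusted p = 0.0133). ILMN_2880067 measured 13.08, 12.93 and 12.86 in TK AngII and 12.62, 12.14 and 12.49 in WT AngII (0.54 ± 0.16, adjusted p = 0.0385). On both probes the lowest TK AngII array lay above the highest WT AngII array. The core iron-sulfur subunit Ndufs8 measured 12.43, 12.32 and 12.31 in TK AngII and 12.07, 11.39 and 11.72 in WT AngII (0.63 ± 0.17, adjusted p = 0.0326). Ndufb11, encoded on the X chromosome, measured 6.55, 6.42 and 6.48 in TK AngII and 5.96, 5.33 and 5.73 in WT AngII (0.81 ± 0.21, adjusted p = 0.0232). For both genes WT AngII replicate 2 was the lowest array and the groups did not overlap.

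Ndufa6, which anchors an acyl carrier to the peripheral arm, measured 12.57, 12.70 and 12.51 in TK AngII and 12.18, 11.64 and 12.04 in WT AngII (0.64 ± 0.19, adjusted p = 0.0462). The dimmer Ndufb6 probe, ILMN_2914507, measured 8.11, 8.35 and 7.82 in TK AngII and 7.79, 6.86 and 6.80 in WT AngII (0.94 ± 0.28, adjusted p = 0.0459), and its brighter probe, ILMN_1242233, gave 0.38 ± 0.17, adjusted p = 0.18. The ranges of the called Ndufb6 probe were separated by 0.03, with WT AngII replicate 1 close to the TK AngII arrays.

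The number of calls depended on single arrays. The number called was 0 without WT AngII replicate 2, 1 without WT AngII replicate 3, 0 without TK AngII replicate 1 or 2, 5 without TK AngII replicate 3 and 23 without WT AngII replicate 1. It was also 0 with arrays scaled to a common median or with all probes kept, and 24 with array weights, all higher. Under common-median scaling the median of all probes was -0.21 and that of complex I probes 0.22, with 60 of 61 above the median of all probes. The median difference of complex I probes stayed above 0 in every run that left out 1 array, between 0.28 and 0.49.

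In sham mice the genotypes were not distinguished. In Balb/C 0 of 61 probes and 0% of all probes were called. The median difference was 0.14, with 43 of 61 probes higher in TK sham, against 48.2% of all probes. Leaving out 1 array at a time, that median ran between -0.03 (without TK sham replicate 1) and 0.26 (without TK sham replicate 3). The difference between the AngII responses of TK and wild-type mice was called for 0 of 61 probes, where 1.27% of all probes were, and the smallest adjusted p was 0.207. Its median was 0.29 (between 0.16 without TK sham replicate 3 and 0.46 without WT AngII replicate 1), against 0.01 over all probes, and 58 of 61 probes lay above 0, against 51.7% of all probes. With common-median scaling this median was -0.07, against -0.34 over all probes. The larger number of falling probes in wild type than in TK mice is therefore not shown to differ between genotypes for any single probe. In C57Bl/6J 0 of 61 probes were called for KO against wild type in sham (0.00492% of all probes), under AngII (0.108%) or for the difference of responses (0.0394%). The median difference under AngII was 0.03.

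**Figure D5:**
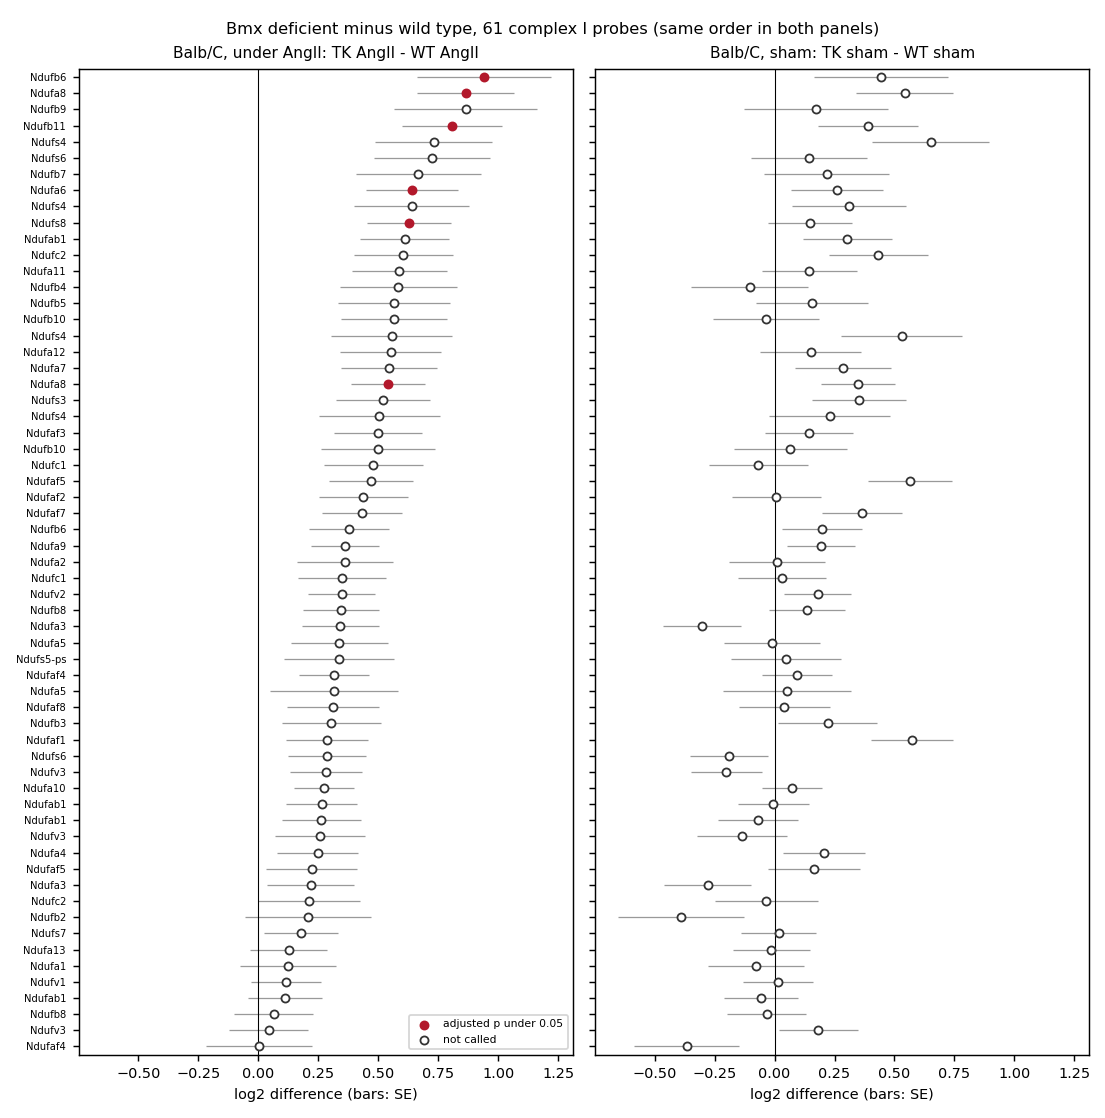
TK minus wild-type log2 difference with its standard error for each of the 61 complex I probes in Balb/C, under AngII (left) and in sham (right), in the order of the left panel. Filled points are called. Under AngII all 61 points lie above 0 and 6 are called, and in sham 43 lie above 0 and 0 are called.

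The promoters of the 5 genes called between genotypes under AngII are shown because the calls of that comparison fell on them. Every complex I probe was higher there, and the calls depended on single arrays and on scaling. Each is the RefSeq sequence from 250 bases before to 50 bases after the gene's start in build GRCm38.p6, written 5′ to 3′ on the gene's own strand, with capitals marking a match to 1 of 3 motifs searched on both strands.
Ndufa6, chr15:82354242-82354541, minus strand: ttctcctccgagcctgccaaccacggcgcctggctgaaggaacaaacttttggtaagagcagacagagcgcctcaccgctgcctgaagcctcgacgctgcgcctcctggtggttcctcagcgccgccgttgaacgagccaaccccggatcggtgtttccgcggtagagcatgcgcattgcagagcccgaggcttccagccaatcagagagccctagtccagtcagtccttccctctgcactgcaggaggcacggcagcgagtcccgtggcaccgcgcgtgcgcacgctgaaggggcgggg
Ndufa8, chr2:36049289-36049588, minus strand: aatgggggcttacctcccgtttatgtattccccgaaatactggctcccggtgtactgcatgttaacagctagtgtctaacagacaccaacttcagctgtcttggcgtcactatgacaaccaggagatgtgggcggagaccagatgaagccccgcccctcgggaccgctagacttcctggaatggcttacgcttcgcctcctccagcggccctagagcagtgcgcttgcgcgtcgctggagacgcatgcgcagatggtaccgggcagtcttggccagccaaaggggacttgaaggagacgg
Ndufb6, chr4:40279372-40279671, minus strand: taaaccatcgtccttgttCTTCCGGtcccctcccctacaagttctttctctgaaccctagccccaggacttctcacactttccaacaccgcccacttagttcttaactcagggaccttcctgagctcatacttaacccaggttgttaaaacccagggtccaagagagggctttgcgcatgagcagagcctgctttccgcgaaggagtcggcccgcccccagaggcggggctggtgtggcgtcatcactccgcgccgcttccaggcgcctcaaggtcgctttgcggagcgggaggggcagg
Ndufb11, chrX:20617570-20617869, minus strand: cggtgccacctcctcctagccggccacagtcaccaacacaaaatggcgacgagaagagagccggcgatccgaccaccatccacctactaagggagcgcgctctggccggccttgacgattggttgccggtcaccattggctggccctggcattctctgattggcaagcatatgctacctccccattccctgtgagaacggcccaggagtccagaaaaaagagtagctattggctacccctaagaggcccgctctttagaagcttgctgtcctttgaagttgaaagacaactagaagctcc
Ndufs8, chr19:3912725-3913024, minus strand: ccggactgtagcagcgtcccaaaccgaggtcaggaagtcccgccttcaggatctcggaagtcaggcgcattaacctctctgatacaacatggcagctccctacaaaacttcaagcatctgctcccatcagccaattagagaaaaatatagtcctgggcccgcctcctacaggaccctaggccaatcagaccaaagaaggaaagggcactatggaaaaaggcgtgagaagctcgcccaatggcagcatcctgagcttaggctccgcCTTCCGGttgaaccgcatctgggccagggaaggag
The motifs were CCGGAAG for ETS factors, for NRF1 GCGCA followed directly by TGCGC, and TCAAGGTCA for estrogen-related receptors, factors named in the regulation of respiratory genes. The capitals in Ndufb6 and Ndufs8 are the ETS letters on the opposite strand, whose first base lies at -232 from the start of Ndufb6 and at 16 from the start of Ndufs8. No letters of the 3 motifs were found in the other 3 windows.

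Over the 39 complex I genes matched to a promoter, the ETS letters were in 6 (15.4%, against 9.12% of the promoters of 27025 genes): Ndufaf1, Ndufaf8, Ndufb6, Ndufb7, Ndufs3 and Ndufs8. The NRF1 letters were in 3 (7.7%, against 0.98%): Ndufa11, Ndufaf4 and Ndufaf5. The letters for estrogen-related receptors were in 0 (against 0.41%). The 3 motifs share no overlapping matches in the sequences printed, and a match describes letters only.

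The strains were set against each other in 1 joint model of the 24 arrays, as the AngII response of C57Bl/6J minus that of Balb/C. In wild type 5 of 61 probes differed, 1 higher and 4 lower in C57Bl/6J, where 12.8% of all probes did, 5.88% higher and 6.92% lower. The lower responses were those of Ndufs4 on ILMN_2663694 (-1.38 ± 0.33, adjusted p = 0.00792) and ILMN_2640944 (-0.92 ± 0.30, adjusted p = 0.0476), Ndufaf5 (-1.11 ± 0.29, adjusted p = 0.0133) and Ndufb5 (-1.05 ± 0.32, adjusted p = 0.0303). The higher response was that of Ndufa3, which fell in Balb/C (0.78 ± 0.20, adjusted p = 0.0109). In Bmx-deficient mice 3 probes differed, all lower in C57Bl/6J, where 1.2% of all probes did and 0.774% were lower: Ndufb9 (-1.66 ± 0.39, adjusted p = 0.0381), Ndufb10 (-1.18 ± 0.28, adjusted p = 0.0406) and Ndufaf5 (-1.15 ± 0.29, adjusted p = 0.0493). For Ndufaf5 the probe was detected on 0 of 3 wild-type and 1 of 3 TK sham arrays of Balb/C, so its fitted values in both genotypes depend on the background there. With common-median scaling 12 probes differed in wild type, all lower, where 20.2% of all probes were lower and 0.378% higher. In deficient mice 0 differed on that scale, where 0.15% of all probes were higher and 0.145% lower.

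Other genes of the respiratory chain were called in both directions in Balb/C. Of all kept probes, 16.6% were called higher and 17.8% lower in wild-type AngII against sham. In wild-type AngII against sham, complex II had 1 of 6 probes higher and 1 lower, complex III 0 of 9 higher and 3 lower, complex IV 2 of 14 higher and 2 lower, and complex V, the ATP synthase, 1 of 24 higher and 1 lower. Sdhd of complex II rose (1.40 ± 0.20, adjusted p = 4.98e-05), Cox7a2 of complex IV rose (1.29 ± 0.27, adjusted p = 0.00164) and Cox7a1, the heart and muscle isoform of the same subunit, fell (-1.12 ± 0.18, adjusted p = 0.000137). Uqcrc1 of complex III fell (-0.66 ± 0.13, adjusted p = 0.00106), and Atp5a1 of complex V rose (0.67 ± 0.16, adjusted p = 0.00434). Complex I assembly factors with other names had 2 of 20 probes higher and 7 lower. Timmdc1 rose (1.30 ± 0.19, adjusted p = 5.85e-05), and Tmem186 fell on 2 probes (-0.90 ± 0.16 and -0.89 ± 0.20). Among regulators of mitochondrial biogenesis 0 of 21 probes rose and 7 fell, among them the coactivator Ppargc1b (-1.21 ± 0.14, adjusted p = 9.56e-06), the mitochondrial RNA polymerase Polrmt (-0.81 ± 0.13), Perm1 (-0.73 ± 0.16) and the nuclear receptor Esrrb (-0.56 ± 0.16). No probe of the subunits encoded in the mitochondrial genome was kept.

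Between TK AngII and WT AngII in Balb/C these lists lay mostly above 0, as the complex I probes did. The counts above 0 were 20 of 20 for the other assembly factors, 6 of 6 for complex II, 8 of 9 for complex III, 14 of 14 for complex IV, 21 of 24 for complex V and 17 of 21 for the regulators, with medians of 0.28, 0.43, 0.08, 0.29, 0.38 and 0.19. Called higher were 1 probe of complex III, Uqcrq (0.63 ± 0.18, adjusted p = 0.0351), 1 of complex V, Atp5g2 (0.78 ± 0.22, adjusted p = 0.0334), and 1 regulator, Ppargc1b (0.85 ± 0.14, adjusted p = 0.00127). No probe of these lists was called lower. Of all kept probes, 51.9% lay above 0 in this comparison, with 3.38% called higher and 4.94% lower.

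Markers of other heart cells moved with the same groups. Of all kept Balb/C probes, 16.6% rose with AngII in wild type and 7.82% in TK mice. Between TK AngII and WT AngII, 3.38% of all kept probes were higher and 4.94% lower. In Balb/C, 12 of 14 fibroblast marker probes rose in WT AngII and 4 of 14 in TK AngII, each against its sham group, and Col3a1 on ILMN_1258629 gave 1.63 ± 0.22 in TK and 3.36 ± 0.22 in wild type. Between TK AngII and WT AngII 10 of 14 fibroblast probes were lower, with a median of -0.95 and mean levels per array of 8.13 to 8.53 in TK AngII and 9 to 9.38 in WT AngII. Macrophage markers averaged 6.56 to 7.33 in TK AngII and 7.45 to 7.51 in WT AngII, and 2 of 9 probes were lower. Smooth muscle markers averaged 8.99 to 9.06 in TK AngII and 8.18 to 8.38 in WT AngII, and 5 of 10 probes were higher. Cardiomyocyte markers averaged 11.71 to 11.76 in TK AngII and 11.56 to 11.60 in WT AngII, and 2 of 17 probes were higher, Ryr2 on 1 probe (0.72 ± 0.20) and Tnni3 (0.69 ± 0.15). The kept probes of the atrial list, of Nppa, Dkk3 and Myl4, averaged 9.22 to 9.41 in TK AngII and 10.56 to 11.01 in WT AngII. The atrial genes Myl7 and Sln were not kept, and whether the kept probes mark atrial tissue here was not tested. Erythroid markers averaged 10.23 to 11.02 in TK AngII and 9.09 to 9.64 in TK sham, and 10.25 to 10.85 in WT AngII and 10.02 to 10.47 in WT sham. In TK mice 2 of 3 erythroid probes rose, Slc4a1 (1.81 ± 0.41) and Alas2 (1.51 ± 0.21), and in wild type 0 of 3 were called. Endothelial markers averaged 7.93 to 8.21 in TK AngII and 8.4 to 8.5 in TK sham. In wild type they averaged 7.93 to 8.08 under AngII and 8.45 to 8.61 in sham, so they were lower under AngII in both genotypes.

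In C57Bl/6J, fibroblast markers averaged 8.97 to 9.3 in KO AngII and 8.29 to 8.32 in KO sham, and 8.95 to 9.38 in WT AngII and 8.36 to 8.63 in WT sham, with 7 of 12 probes higher in each genotype. Macrophage markers had 5 of 10 probes higher in KO and 3 in wild type. The atrial list had 3 of 4 in each, those of Nppa and Dkk3, again without Myl7 and Sln. Of 3 erythroid probes, 1 rose in KO, Slc4a1 (1.91 ± 0.38), and 2 in wild type, Slc4a1 (3.12 ± 0.38) and Alas2 (1.72 ± 0.42). The shares of all kept C57Bl/6J probes were 2.02% higher and 1.37% lower in KO, and 3.22% higher and 3.19% lower in wild type. Of 17 cardiomyocyte and 11 endothelial probes, 0 were called in either genotype. The part of these cell types in the complex I differences of either strain was not tested.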

How the data were processed

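Left-ventricular RNA was labelled and hybridised to Illumina mouse expression arrays, 1 array per sample, per the labels' protocols. The deposited tables hold, per the file headers, a non-normalized intensity and a detection p-value per probe. Of the Balb/C values, 313 detection p-value cells on 11 arrays held a decimal comma in a form that reads as a large number, and were taken as 1. The deposited series values are log2 and quantile-normalized within each strain, as their equal distributions show; the software is not given in the sources used here. Probe genes came from the platform annotation: 34885 probes had 1 symbol, 18 several and 10378 none listed, and 34807 were matched by Entrez identifier.

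Each strain was processed by itself in limma 3.58.1 (R 4.3.3): background correction by normexp from the detection p-values with an offset of 16, quantile normalization, and log2. Probes with a detection p below 0.05 on at least 3 of 12 arrays were kept, 20319 in C57Bl/6J and 19783 in Balb/C. A model with 4 groups (8 residual degrees of freedom) and eBayes was fitted to all kept probes of a strain, with the Benjamini-Hochberg adjustment across every kept probe. Strain differences came from 1 model of 24 arrays and the 17967 probes kept in both strains. The fit was tested on simulated data. Precision is limited by 3 arrays per group.

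The members and lists were chosen with earlier results of these data known. Values on every array were given for core subunits and, per strain, for the 6 further members with the smallest p in AngII against sham averaged over genotypes; every called member was named, and up to 4 called genes of each other list. Several probes of a gene were kept apart, and the brightest is that with the highest mean over 24 arrays, or, in the within-gene comparison, within the strain (another probe only for Ndufb10 in C57Bl/6J). The within-gene probe comparison was chosen after seeing the data. Alternatives covered background correction, offset, scaling, deposited values, filters, the brightest probe per gene, a trended prior, array weights, a replicate block, only the groups compared, and leaving out each array.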

Additional observations from a re-analysis of the deposited data

Results flagged for a closer look

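In 8 cases the AngII response of a complex I probe differed between the strains by a test of the difference itself. The same Ndufaf5 probe is counted in both genotypes. Values are C57Bl/6J minus Balb/C on the log2 scale, from limma with Benjamini-Hochberg adjustment. Over all probes kept in both strains, 12.8% were called in wild type and 1.2% in Bmx-deficient mice. In wild-type mice the difference was -1.11 for Ndufaf5 (ILMN_1216813), -1.05 for Ndufb5 (ILMN_2617335), -0.915 for Ndufs4 on ILMN_2640944 and -1.381 for Ndufs4 on ILMN_2663694. It was 0.783 for Ndufa3 (ILMN_2772241). In Bmx-deficient mice it was -1.145 for Ndufaf5 (ILMN_1216813), -1.657 for Ndufb9 (ILMN_2605004) and -1.178 for Ndufb10 (ILMN_2691261). These deficient-mouse calls were lost under 7 of 10 alternatives for Ndufaf5, 2 of 11 for Ndufb9 and 3 of 10 for Ndufb10. In runs that left out 1 array, they were lost in 9, 9 and 10 of 12. Among the wild-type calls, Ndufs4 on ILMN_2640944 was lost under 3 of 10 alternatives and in 10 of 12 such runs. Ndufb5 was lost under 1 of 11 and in 5 of 12, and Ndufa3 under 1 of 10 and in 0 of 12. The wild-type calls of Ndufaf5 and of Ndufs4 on ILMN_2663694 were never lost. The strains were deposited as separate tables and normalized separately, so strain and any processing that differed between the tables cannot be told apart.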

How the results depend on the processing

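Of 64 probe calls, 28 were kept under every alternative and without each array, and 0 reversed. Counts of called complex I probes that moved by over 1.5 times are given by setting. No background correction gave 3 in C57Bl/6J wild type, 9 in C57Bl/6J with genotypes averaged and 9 for the wild-type strain difference, and the deposited values gave the same 3 counts. An offset of 50 gave 4 for C57Bl/6J averaged and 8 for the wild-type strain difference. Common-median scaling gave 0 for C57Bl/6J averaged, 0 for TK against WT under AngII, 12 for the wild-type and 0 for the deficient strain difference. Keeping all probes gave 0 in C57Bl/6J KO, 0 averaged, 0 for TK against WT under AngII, 3 for the wild-type and 0 for the deficient strain difference. The brightest probe per gene gave 0 in KO and 0 averaged in C57Bl/6J, 10, 7 and 10 in Balb/C wild type, TK and averaged, and 3 and 1 for the strain differences, with 42 probes in place of 61. A trended prior gave 1, 3 and 7 in C57Bl/6J wild type, KO and averaged, and 10 for the wild-type strain difference. Array weights gave 24 for TK against WT under AngII, 1 for the difference of responses in Balb/C, and 9 and 7 for the strain differences. Only the groups compared gave 0 in KO. The replicate block gave 0 in KO and 0 averaged in C57Bl/6J, and 16, 12 and 20 in Balb/C wild type, TK and averaged; same-numbered arrays had residual correlations of -0.15 to 0.18 in C57Bl/6J and -0.10 to 0.29 in Balb/C, so the numbers were not taken to pair them. The causes were not tested. Without each array in turn the counts ran from 0 to 0 in C57Bl/6J wild type, 0 to 1 in KO, 0 to 1 averaged, 13 to 15 in Balb/C wild type, 9 to 14 in TK, 17 to 21 averaged, 0 to 23 for TK against WT under AngII, 3 to 8 for the wild-type and 0 to 5 for the deficient strain difference.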
